A study of Mus musculus with 2 samples.

Results

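Cadherins are membrane proteins that hold neighbouring cells together through calcium-dependent contacts. The classical cadherins bind a matching cadherin on the next cell and, inside the cell, bind catenins that tie the junction to actin. Type I members such as E-cadherin and P-cadherin are known from epithelia and N-cadherin from mesenchyme, nerve and muscle, while type II members are found in mesenchymal and developing tissues. In the ureter an epithelium that will form the urothelium is surrounded by mesenchyme that will form smooth muscle and connective tissue.

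The genes described here are Cdh1, Cdh2, Cdh3, Cdh4, Cdh6, Cdh11, Cdh13 and Cdh16, taken as every non-control probe that carries one of these names in the scanner files. They are 8 of 30011 genes or unnamed features on the array and have 14 of its 39429 probes, each printed as 4 spots. Cdh3 was the reason for the choice, because its ratio was large on both arrays, so all values of these genes in the comparison are a description and carry no test. As background, 6 of the 8 genes encode classical cadherins (type I for Cdh1, Cdh2, Cdh3 and Cdh4, type II for Cdh6 and Cdh11). Cdh13 encodes T-cadherin, which is anchored to the membrane by a lipid and has no cytoplasmic domain, and Cdh16 encodes a kidney cadherin with a short cytoplasmic tail, so the name classical does not cover these last 2.

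Ureters from wild-type NMRI mouse embryos of stage E13.75, of mixed sex, were grown for 18 h on transwell membranes. They were grown either with 10 µg/ml of NOGGIN, an extracellular antagonist that captures bone morphogenetic proteins (BMPs), or without it. The question is what blocking BMP signalling does to transcript levels, here those of the cadherins. A pair of two-colour arrays, each holding 1 NOGGIN and 1 control sample, measured the RNA, with the dyes exchanged between them. Separate litters or cultures are not stated in the labels, so SDs and p-values here measure only the spread between these samples, which may be technical. Array and dye order changed together, so a difference between the dyes would be part of that spread.

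The arrays shared a slide and a scan, and 22316 genes or unnamed features had a probe that passed the filter on dim probes. The 11 pan-epithelial and 12 ureteric mesenchyme markers were all among them, as were 10 of 12 nephron markers. Which condition is which remains unsettled. Blocking BMP signalling would be expected to lower a BMP target such as Id1. Id1 was higher in the channel labelled NOGGIN when the dyes are read from the labels (log2 ratio 2.14 ± 0.09, SD, n = 2). The authors' deposited table lists it at -4.65 and -4.53 as signed fold changes, and its titles read NOGGIN against control, so the signs oppose. All signed values below divide the channel labelled NOGGIN by that labelled control. Were the dye labels exchanged, the signs would turn and the sizes would not. In limma's moderated test across all features 0 genes passed an adjusted p of 0.05, the lowest adjusted p being 0.0746, and 1348 (6.04%) had an unadjusted p under 0.05.

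Cdh3, which encodes P-cadherin, a cadherin of basal cells in stratified epithelia, was much lower in the channel labelled NOGGIN. Its normalized log2 intensity was 12.18 and 12.11 in the NOGGIN channels of arrays 1 and 2, against 14.17 and 14.48 in the control channels. Both NOGGIN values lay below both control values, and the probe was well above background in all 4 channels. The log2 ratio was -1.99 on array 1 and -2.37 on array 2, a mean of -2.18 ± 0.27 (SD, n = 2), or 4.55-fold lower. The authors' deposited table gives this probe signed fold changes of 4.20 and 4.85, the same size with the opposite sign. In these whole-ureter samples fewer Cdh3-expressing cells and less Cdh3 RNA per cell cannot be told apart.

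The separate spots of the Cdh3 probe lay close together. On array 1 the log2 ratios of the scanner software's processed signals ran from -2.21 to -1.93 over 4 spots, and on array 2 from -2.36 to -2.16. Before normalization the mean spot signal on array 1 was 5674 in the NOGGIN channel and 12354 in the control channel, over local backgrounds near 25.6 and 63.8. On array 2 it was 3879 in the NOGGIN channel and 32979 in the control channel. The control channel was the brighter on both arrays although it carried the red dye on array 1 and the green dye on array 2.

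The Cdh3 probe lies on mouse chromosome 8, at chr8:109079933-109079992 of build mm9 (plus strand), and the single Cdh1 probe at chr8:109193812-109193871 (plus strand). No exon or UTR annotation of mm9 was used. The first 30 of the 60 bases of each are shown because these 2 genes are neighbours on the chromosome and encode related proteins, yet their ratios differ. Capitals mark the longest run that the printed stretch shares with a probe of another of the 8 genes.
Cdh3: TATTTTccctgttatgtgctgtagatggag
Cdh1: acattctaacgggAAAAAGgagacaagacc
Each printed stretch shares at most 6 bases in a row with another gene of the group. Over its full length the Cdh3 probe shares at most 13 bases in a row with any probe of another gene on the array, and the Cdh1 probe at most 14.

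Cdh1 encodes E-cadherin, the main cadherin of epithelial adherens junctions. Its level was 14.61 and 14.25 in the NOGGIN channels of arrays 1 and 2, against 14.82 and 15.00 in the control channels. The channels did not overlap, but the log2 ratio was -0.21 on array 1 and -0.75 on array 2, a mean of -0.48 ± 0.38 (SD, n = 2) or 1.39-fold lower. Only array 2 was past 1.5-fold.

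Within each array, Cdh3 was lower relative to Cdh1 by about the same amount. The log2 ratio of Cdh3 minus that of Cdh1 was -1.78 on array 1 and -1.63 on array 2. Against the other 6 genes, this difference ran from -2.27 to -1.39 on array 1 and from -2.35 to -1.65 on array 2. So Cdh3 stood apart from each of them on both arrays, which is how it was chosen.

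Cdh2 encodes N-cadherin, and its 2 probes on chromosome 18 gave like ratios. The brighter probe had 13.99 and 13.89 in the NOGGIN channels, against 14.50 and 14.29 in the control channels. The channels did not overlap, and the log2 ratio was -0.51 on array 1 and -0.40 on array 2, a mean of -0.46 ± 0.08 (SD, n = 2). The other probe had a mean of -0.43 ± 0.13. Neither probe reached 1.5-fold on either array.

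Cdh4 encodes R-cadherin, a type I cadherin known from retina, brain and the developing nephron. The brightest of its 3 probes, all on chromosome 2, had 11.00 and 11.10 in the NOGGIN channels, against 11.30 and 11.82 in the control channels. Its log2 ratio was -0.30 on array 1 and -0.72 on array 2, with a mean of -0.51 ± 0.30 (SD, n = 2). The other probes had means of -0.36 ± 0.33 and -0.43 ± 0.33. All 3 probes were lower in the NOGGIN channel on both arrays, with no overlap between channels. They differed in which array gave the larger size, since the dimmest had -0.59 on array 1 and -0.12 on array 2.

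**Figure D1:**
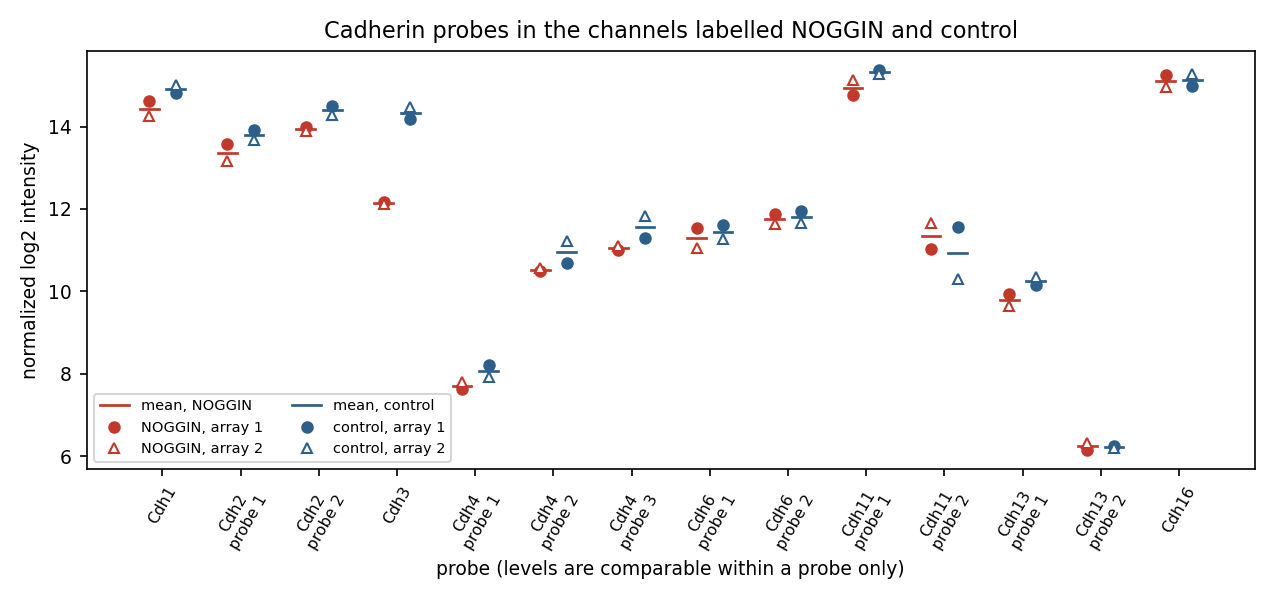
Normalized log2 intensity (y axis) of each of the 14 cadherin probes (x axis) in the channels labelled NOGGIN (red, left of each pair) and control (blue, right). Circles are array 1, open triangles array 2 and bars the mean of the 2 arrays. The Cdh3 points at 12.18 and 12.11 in the NOGGIN channels lie far below 14.17 and 14.48 in the control channels, while the gaps of the other probes are smaller.

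Of the type II cadherins, Cdh6 had the smaller ratio. Cdh6, K-cadherin, known from early nephron epithelia and neural crest, had 11.88 and 11.63 in the NOGGIN channels for its brighter probe on chromosome 15, against 11.94 and 11.65 in the control channels. The channels overlapped, and the log2 ratio was -0.06 on array 1 and -0.02 on array 2. The other Cdh6 probe had a mean of -0.15 ± 0.12 (SD, n = 2), also with overlap.

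Cdh11 encodes a type II cadherin of mesenchymal cells, and its 2 probes on chromosome 8 disagreed. The brighter one had 14.77 and 15.12 in the NOGGIN channels, against 15.38 and 15.28 in the control channels, with log2 ratios of -0.61 on array 1 and -0.16 on array 2. The dimmer one had 11.04 and 11.66 in the NOGGIN channels, against 11.57 and 10.30 in the control channels. Its log2 ratio was -0.53 on array 1 and 1.36 on array 2, so the arrays gave opposite directions. After normalization the red channel, control on array 1 and NOGGIN on array 2, was the brighter on both arrays. Whether the dye bears on this was not tested. The 4 spots of the dimmer probe lay between 1.26 and 1.43 on array 2 by the processed signals, and the authors' deposited table has the same turn, with signed fold changes of 1.45 and -2.54. As for every gene, the brighter probe stands for Cdh11, and the direction of its mean depends on that choice.

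The first 30 bases of both Cdh11 probes and both Cdh13 probes are shown because each pair carries 1 gene name and gave different results. Capitals again mark the longest run shared with a probe of another of the 8 genes.
Cdh11 brighter probe: tattttagtatacatACAAATATcagtatt
Cdh11 dimmer probe: atagaactgtttgaaatcaCAACAGactga
Cdh13 detected probe: acatcacggacctcaaggtgcaggTGTGCT
Cdh13 undetected probe: catcagcatggcagccCTGAATAtgctaca
The brighter Cdh11 probe lies at chr8:105157473-105157532 (mm9, minus strand). The dimmer one is placed at chr8:105156895-105156927, an interval of 33 bases for a probe of 60, and shares up to 21 bases in a row with a probe of another gene on the array. For the brighter probe that longest shared run is 12 bases. Whether this bears on the disagreement was not tested. The detected Cdh13 probe lies at chr8:121837969-121838028 (plus strand) and the undetected one at chr8:121492114-121492173 (plus strand).

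Cdh13, T-cadherin, known from vascular cells and nerve, had 9.92 and 9.64 in the NOGGIN channels of its detected probe, against 10.15 and 10.36 in the control channels. The channels did not overlap, and the log2 ratio was -0.22 on array 1 and -0.72 on array 2, a mean of -0.47 ± 0.35 (SD, n = 2). The other Cdh13 probe, annotated to a separate Ensembl transcript, was not well above background in any channel. It is the only one of the 14 probes that did not pass the filter on dim probes.

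Cdh16, the kidney-specific cadherin, which is also known from the epithelium of the Wolffian duct and its derivatives, differed little on average. Its single probe, at chr8:107138101-107138160 (mm9, minus strand), had 15.26 and 14.96 in the NOGGIN channels, against 14.98 and 15.26 in the control channels. The log2 ratio was 0.27 on array 1 and -0.30 on array 2. The channels overlapped and the arrays gave opposite directions, so the mean of -0.01 ± 0.41 (SD, n = 2) has no direction. The green channel, NOGGIN on array 1 and control on array 2, was the brighter on both arrays. Whether the dye bears on these values was not tested. The probe was bright, with mean spot signals before normalization of 43882 and 30418 in the NOGGIN channels and 23561 and 51746 in the control channels.

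By the fold rule, which asks that both arrays differ by 1.5-fold or more in 1 direction, 1 of the 8 genes was lower (Cdh3), 0 were higher and 7 were neither. Over all features 1.25% were lower and 0.941% higher by this rule, 2.19% together. A further 6 genes were lower on both arrays without reaching it, and 0 were higher on both. Of all features 23.4% were lower and 20.4% higher on both. The channels did not overlap, with NOGGIN below control, for 6 of the 8 genes, and for 17.9% of all features. The median log2 ratio of the 8 genes was -0.47, against -0.01 over all features. Nothing is read from these counts, since the genes were picked from the same contrast.

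The 8 genes fall into an order by mean log2 ratio, with Cdh3 (-2.18) lowest and 7th lowest of the 22316 features. Cdh4 (-0.51), Cdh1 (-0.48), Cdh13 (-0.47), Cdh2 (-0.46) and Cdh11 (-0.39) followed, then Cdh6 (-0.04) and Cdh16 (-0.01). Neighbours among the middle 5 differed by less than the spread between arrays, which ran from 0.08 to 0.38 as SD. Of the 7 genes other than Cdh3, 1 was past 1.5-fold on array 1 (Cdh11) and 3 on array 2 (Cdh1, Cdh4 and Cdh13), and none on both. Among all 22316 features, 962 were past 1.5-fold on array 1 and 2633 on array 2, so array 2 had more for features in general.

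**Figure D2:**
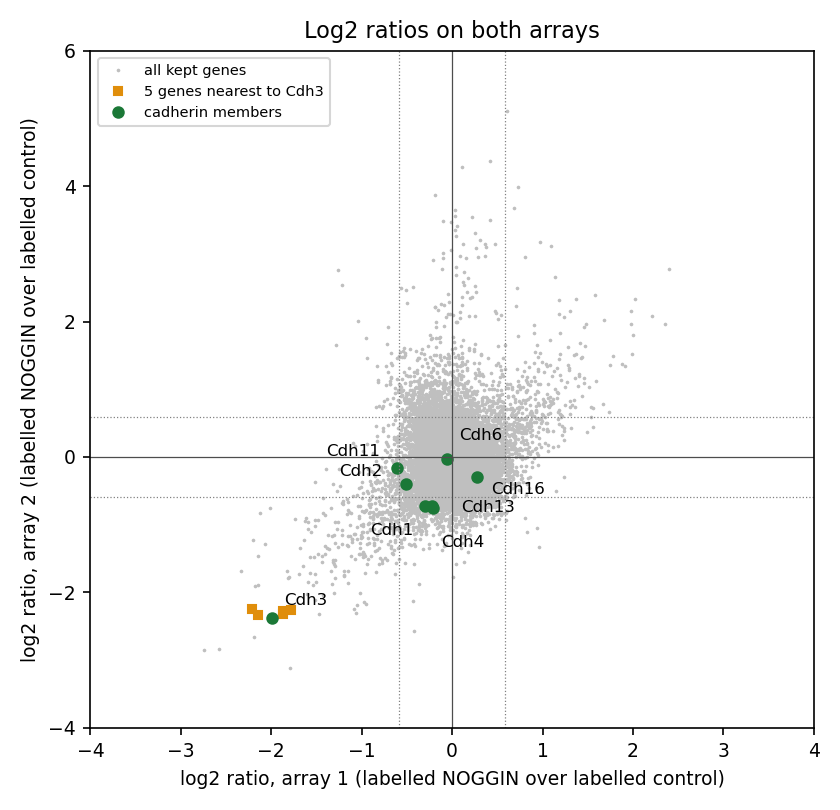
Log2 ratio of labelled NOGGIN over labelled control on array 1 (x axis) and array 2 (y axis) for 22316 kept genes (grey), the 8 cadherins (green) and the 5 genes nearest to Cdh3 (orange). Dotted lines mark 1.5-fold. Cdh3 lies at -1.99 and -2.37, and the other 7 cadherins lie within or just past the dotted lines.

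A feature the choice did not use is position. Of the 8 genes, 5 lie on chromosome 8 (Cdh1, Cdh3, Cdh11, Cdh13 and Cdh16), and Cdh3 and Cdh1 are adjacent protein-coding genes in the RefSeq gene table of assembly GRCm38.p6. The genes beside this pair were looked at outside the naming rule, with earlier results known. The 4 measured genes before Cdh3 (Slc7a6os, Prmt7, Smpd3 and Zfp90) had mean log2 ratios between -0.15 for Smpd3 and 0.19 for Slc7a6os. Smpd3 had opposite signs, with 0.34 on array 1 and -0.63 on array 2, past 1.5-fold on array 2 only. Tango6, Has3 and Chtf8, the measured genes after Cdh1, had -0.09, -0.01 and -0.04. None of these 7 neighbours passed the fold rule, which 2.19% of all features passed in either direction. Nothing is read from this count, since Cdh3 was picked for its large ratio.

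**Figure D3:**
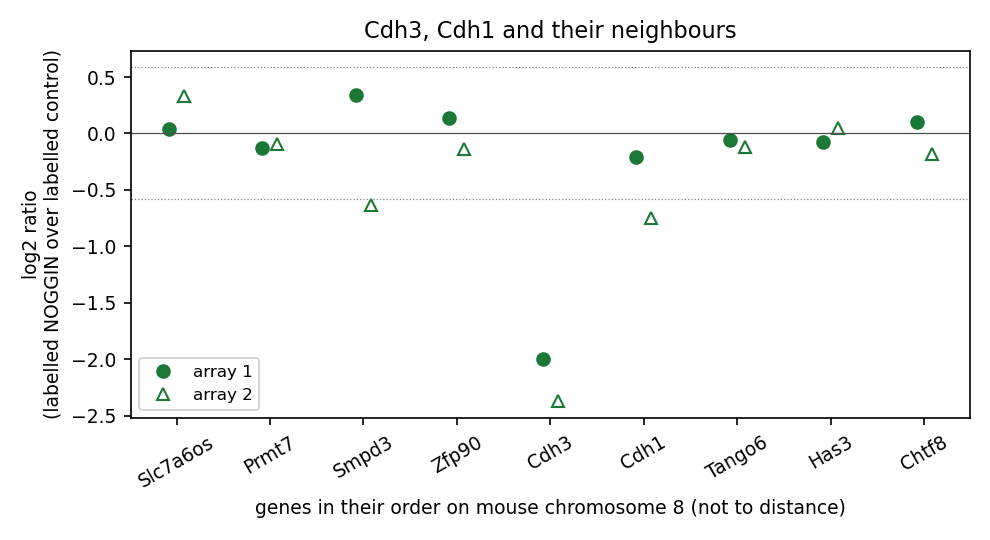
Log2 ratio of labelled NOGGIN over labelled control (y axis) on array 1 (circles) and array 2 (triangles) for Cdh3, Cdh1 and their measured neighbours, in gene order on chromosome 8 (x axis). Cdh3 lies at -1.99 and -2.37, Cdh1 at -0.21 and -0.75, and no neighbour passed 1.5-fold on both arrays.

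The genes whose pair of array ratios was nearest to that of Cdh3, by Euclidean distance over the 2 arrays, were Bmp2, Prmt8, Syt13, Bhlha15 and Irs4. Bmp2, a BMP ligand, was nearest at a distance of 0.14, with -1.87 on array 1 and -2.32 on array 2. Syt13 had -1.87 and -2.28 and Bhlha15 had -1.78 and -2.26. Prmt8 (-2.15 and -2.34) and Irs4 (-2.21 and -2.25) were well above background in the NOGGIN channel on 1 array only, so their sizes are less certain.

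The next genes are those of adherens junctions, which include catenins and other cytoplasmic proteins but also the nectins and Epcam, adhesion proteins of the membrane. Of 20 such genes, 19 were measured, 0 were higher and 0 lower by the fold rule, and 0 passed limma's adjusted p of 0.05. Their median log2 ratio was -0.09, with -0.03 on array 1 and -0.21 on array 2. Among the catenins, which link cadherins to actin or hold them at the membrane, Ctnnb1 (beta-catenin) had 0.03 ± 0.11, Ctnna1 (alpha-catenin) had -0.06 ± 0.26 and Ctnnd1 (p120-catenin, which stabilises cadherins at the membrane) had -0.09 ± 0.41 (SD, n = 2 each). Jup (plakoglobin) had 0.03 ± 0.09, at low levels of 7.85 and 7.62 in the NOGGIN channels, against 7.88 and 7.53 in the control channels. Ctnna2, the neural alpha-catenin, was lower on both arrays, with -0.25 on array 1 and -0.44 on array 2, and a mean of -0.35 ± 0.13. The largest sizes in the list were those of Ajuba (-0.44 ± 0.04), a LIM protein of the junction, Arvcf (-0.38 ± 0.85), a relative of p120-catenin with opposite signs on the arrays, and Vcl (vinculin, -0.35 ± 0.16).

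Among 15 other numbered cadherin genes, 13 were measured, with a median of 0.06. By the fold rule 1 was lower and 0 higher (1.25% and 0.941% of all features). Cdh9, a type II cadherin, had 8.53 and 8.45 in the NOGGIN channels, against 9.31 and 9.40 in the control channels, a log2 ratio of -0.86 ± 0.12 (SD, n = 2, limma adjusted p = 0.217). Cdh15 (M-cadherin of muscle) had -0.22 on array 1 and -0.95 on array 2, Cdh22 had a mean of 0.47 ± 0.07 and Cdh5 (the endothelial VE-cadherin) 0.21 ± 0.16. Of 15 desmosomal genes, whose products include the cadherins of desmosomes, 9 were measured and 0 passed the fold rule in either direction, with a median of -0.10. Pkp1 had -0.43 ± 0.44, Dsg2 had -0.33 ± 0.20 and Perp had 0.23 ± 0.04.

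Genes listed as regulators of cadherin genes went both ways. Of 20 listed, 19 were measured, 0 passed limma's adjusted p, and the median was -0.05. The fold rule took 2 as higher and 1 as lower (0.941% and 1.25% of all features). Snai1, a zinc finger repressor of Cdh1, had 13.36 and 12.95 in the NOGGIN channels, against 11.62 and 12.28 in the control channels. The channels did not overlap, and its log2 ratio was 1.74 on array 1 and 0.67 on array 2, a mean of 1.20 ± 0.76 (SD, n = 2, limma adjusted p = 0.335). Ovol1, an epithelial transcription factor, had 0.86 ± 0.31 and Klf4, another one, had -0.72 ± 0.10. The related repressors stayed under 1.5-fold, with Snai2 at 0.27 ± 0.28, Zeb1 at -0.18 ± 0.27 and Zeb2 at 0.40 ± 0.09. Of 10 enzymes that cut cadherins or their precursors, 8 were measured and 0 passed the fold rule (median -0.02). Adam10, which sheds the outer part of E-cadherin and N-cadherin, had 0.32 ± 0.15, Adam17 had -0.23 ± 0.41 and Mmp9 had -0.37 ± 0.25.

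Markers of basal urothelial cells were looked at because P-cadherin is known to be found in such cells in the adult bladder. The samples here are embryonic ureter, and whether they held such cells was not tested. Of 11 measured, 2 were lower and 0 higher by the fold rule (1.25% and 0.941% of all features), and 9 were lower on both arrays (23.4% of all features). The median log2 ratio was -0.45, with -0.20 on array 1 and -0.50 on array 2. Krt17, a basal keratin, had 7.81 and 7.80 in the NOGGIN channels, against 9.35 and 9.69 in the control channels, a log2 ratio of -1.72 ± 0.25 (SD, n = 2, limma adjusted p = 0.101). Krt15 had -0.83 ± 0.29. Krt14 (-0.86 ± 0.65) and Krt5 (-0.65 ± 0.16) did not reach 1.5-fold on both arrays, and Trp63, the basal transcription factor, had -0.02 ± 0.25 with opposite signs. Cd44, a hyaluronan receptor, had a mean of 0.26 ± 0.60 with 0.69 on array 2, and Itga6, an integrin of the basal cell surface, had -0.03 ± 0.01. The mean normalized log2 intensity over the 11 markers was 10.21 and 10.19 in the NOGGIN channels, against 10.68 and 10.69 in the control channels, and the part of such cells in the Cdh3 result was not tested.

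Pan-epithelial markers were measured beside these. Of 11, 0 passed the fold rule, the median log2 ratio was 0.08, and their mean level was 14.21 and 14.15 in the NOGGIN channels, against 14.13 and 14.15 in the control channels. Epcam, an epithelial adhesion molecule, had -0.10 ± 0.12, Krt8 had 0.30 ± 0.29, Foxa1 had 0.28 ± 0.41 and Krt7 had -0.39 ± 0.31 (SD, n = 2 each). Nephron markers, given beside Cdh4, Cdh6 and Cdh16 because these are known from nephron or kidney epithelia, had a median of -0.17. Of 10 measured, 9 were lower on both arrays (23.4% of all features) and 2 were lower by the fold rule (1.25%). These were Lhx1 (-1.12 ± 0.56) and Wt1 (-0.90 ± 0.02), and Pax8 had -0.25 ± 0.05. Their mean level was 9.31 and 9.29 in the NOGGIN channels, against 9.60 and 9.61 in the control channels, Umod and Hnf4a were not measured, and their part in the cadherin values was not tested. Among 12 ureteric mesenchyme markers, given beside Cdh2 and Cdh11, the median was -0.16. By the fold rule 2 were higher and 0 lower (0.941% and 1.25% of all features). The higher ones were the transcription factor genes Sox9 (1.21 ± 0.01) and Tbx18 (0.77 ± 0.17). Below 1.5-fold on at least 1 array, Col3a1 had -0.80 ± 0.35 and Acta2 had -0.79 ± 0.86. Their mean level was 15.16 and 15.16 in the NOGGIN channels, against 15.26 and 15.16 in the control channels, and their part was not tested.

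**Figure D4:**
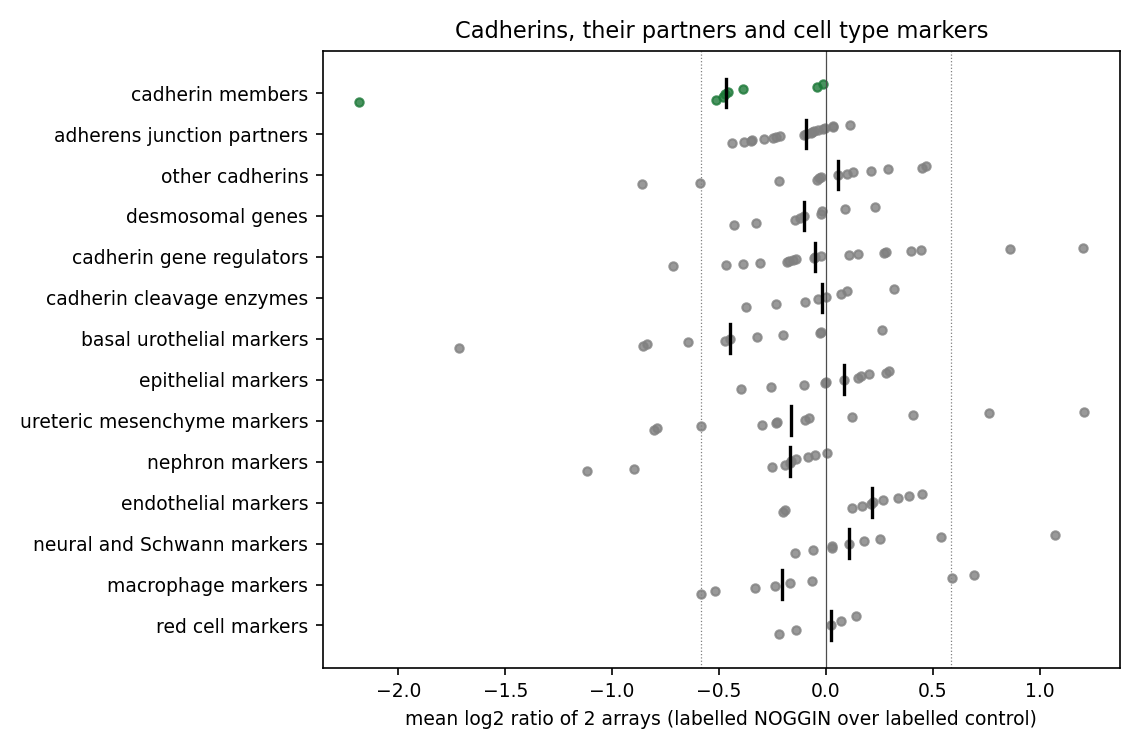
Mean log2 ratio over the 2 arrays of labelled NOGGIN over labelled control (x axis) for each measured gene (points) of the 8 cadherins and of 13 lists of partners, regulators and cell type markers (rows). Black bars are medians and dotted lines mark 1.5-fold. Cdh3 stands alone among the cadherins at -2.18, and the basal urothelial markers have a median of -0.45, against 0.08 for the epithelial markers.

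The Cdh3 value moved little with the processing. Over 9 other ways of correcting, normalizing, filtering and averaging both arrays its log2 ratio lay between -2.22 and -2.17. These include the authors' deposited values, whose sign was first turned to divide the channel labelled NOGGIN by that labelled control. Given this turn, the ratios of Cdh1, Cdh2, Cdh4, Cdh6 and Cdh13 kept their direction in each of the settings tried, single arrays included. That of Cdh11 turned to 0.014 when its 2 probes were averaged, and that of Cdh16 turned sign in 4 settings.

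**Figure D5:**
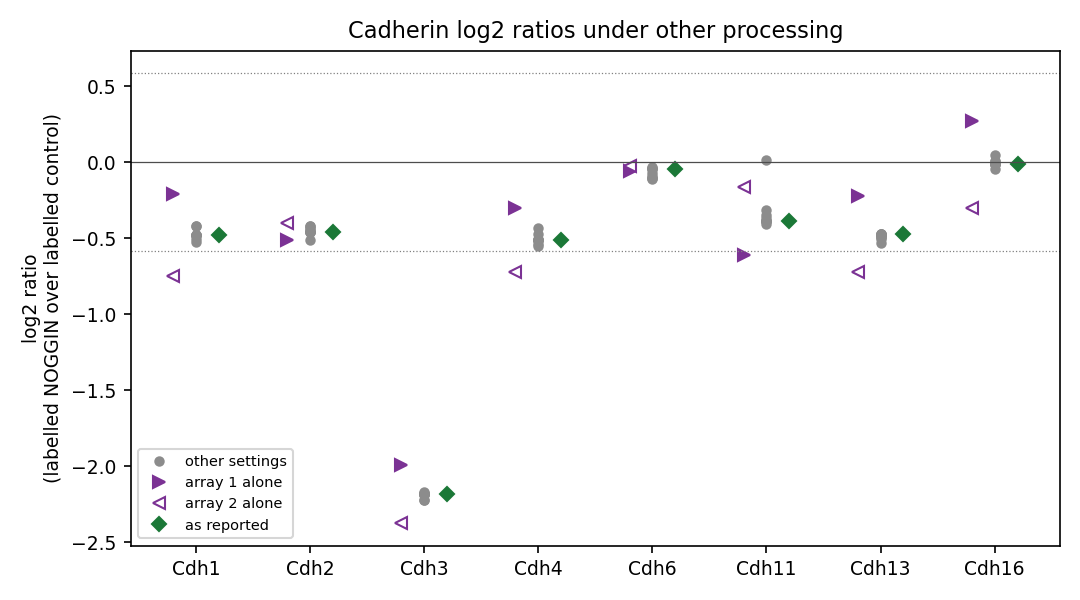
Log2 ratio of labelled NOGGIN over labelled control (y axis) for each cadherin (x axis) as reported (green diamonds), under 9 other settings (grey) and on array 1 or array 2 alone (purple triangles). Dotted lines mark 1.5-fold. Cdh3 stays near -2.2 throughout, between -1.99 and -2.37 on single arrays, and Cdh11 and Cdh16 each have points on both sides of 0.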

How the data were processed

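Per the file headers, the scanner output gives an intensity per spot and channel, as an unnormalized mean and as a processed signal after background and dye correction. The software was Agilent Feature Extraction 10.7.3.1, per the submitters' processing notes. A log10 ratio of the processed signals, red over green, is also deposited. The authors' table has a score for each probe, which on comparison with the scanner output is a signed fold change whose normalization is not stated. It correlated with red over green at 0.891 (array 1) and -0.943 (array 2), so by the dyes it divides control by NOGGIN, while the titles name NOGGIN first.

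By the labels, NOGGIN RNA was green on array 1 and red on array 2. Each array is 1 replicate, and the number of arrays limits the precision. In limma 3.58.1 (R 4.3.3), normexp with an offset of 50 corrected the mean signals, and loess, giving control spots no weight, normalized each array. Outlier spots (3.48% and 3.37%) and control spots were dropped, 0 spots were saturated, and spots were averaged per probe. Probes passed the filter on dim probes (29645 of 39429) when, on each array, the majority of their spots in either channel exceeded background clearly, by the scanner's own test. The brightest passing probe stood for a gene. Channel levels were scaled between arrays by quantiles of the mean intensity, which leaves ratios unchanged, and are compared within a probe only. Names were updated through RefSeq accessions (28328 probes, 71.8%), and positions (mm9) come from the files.

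limma's lmFit and eBayes were run on the log2 ratios (1 residual and 4.33 prior degrees of freedom), and two-sided p-values took the Benjamini-Hochberg adjustment across features. The fit was tested on simulated data. Named genes were the 8 cadherins, the 3 largest sizes in each list, 12 genes taken always (among them Ctnnb1, Snai1 and Trp63), Id1 and the 5 genes nearest to Cdh3. Ctnna2, Cd44, Itga6, Tbx18, Tek, Tie1 and 5 macrophage markers (C1qa, C1qb, Cd68, Mrc1 and Csf1r) were named outside this rule after their values were seen. The members and lists were chosen with earlier results of these data known. Other settings changed the signals, correction, scaling, filters, averaging, variance model or thresholds, or used the authors' values or a single array. The authors' values entered with their sign turned, since by the dyes they divide control by NOGGIN. Promoter and protein sequences were not used here. Figures were drawn with matplotlib 3.10.9.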

Additional observations from a re-analysis of the deposited data

How the results depend on the processing

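With 2 arrays, 1 residual degree of freedom limits every test, and low signal limits dim probes, among them the second of Cdh13. The Cdh3 ratio of -2.18 ran from -2.22 to -2.17 over 9 settings on both arrays and from -2.37 to -1.99 on single arrays. The count of cadherins past the fold rule, 1 as reported, was also 1 in the other settings on both arrays, including 2-fold, and 2 to 4 on single arrays. Each ratio is taken within an array, so the replicate block is part of the design, and 45 genes passed an adjusted p of 0.05 in a separate-channel fit with no replicate block. That count, 0 as reported (1348 at an unadjusted p under 0.05), was 141 under limma's trend and robust options, 114 with median centring, 83 where both channels had to be detected, 40 without background correction, 22 when outlier spots stayed in, and 27 when the threshold was 0.1. The fold-rule count of 488 became 150 at 2-fold, 853 on processed signals and between 962 and 2633 with a single array. The Cdh16 ratio turned to 0.047 on the authors' deposited values, after their sign was turned to follow the dye labels. It also turned to 0.010 with the median over spots and 0.0099 on processed signals, and ran from -0.30 to 0.27 on single arrays. That of Cdh11 turned to 0.014 with the mean over its kept probes, which adds the dimmer probe. Among list medians near 0, cleavage enzymes turned to 0.060 with the median over spots and ran from -0.19 to 0.15 on single arrays. Cadherin gene regulators turned to 0.0086 with the mean over kept probes and ran from 0.058 to 0.087 on single arrays. Desmosomal genes ran from -0.15 to 0.062 on single arrays, other cadherins turned to -0.021 with no filter on dim probes, and red cell markers turned to -0.053 with no filter and ran from -0.059 to 0.11 on single arrays. Apart from that of Cdh11, the causes were not tested.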

Other observations

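Markers of other cell types that the ureter holds were measured beside the cadherins. Of 10 endothelial markers, 0 passed the fold rule, 6 were higher on both arrays in the channel labelled NOGGIN (20.4% of all features), 1 was lower on both (23.4%) and 3 had opposite signs. The median log2 ratio was 0.22, with Cldn5 at 0.45 ± 0.15, Esam at 0.39 ± 0.15 and Pecam1 at 0.34 ± 0.39 (SD, n = 2 each). Tek, at -0.19 ± 0.04, was the gene lower on both arrays, and Tie1 had 0.20 on array 1 and -0.61 on array 2. Of 9 neural and Schwann markers, 1 was higher by the fold rule (0.941% of all features). This was S100b, a calcium-binding protein of glia, with 9.70 and 9.61 in the NOGGIN channels, against 8.56 and 8.61 in the control channels, a log2 ratio of 1.07 ± 0.10. Stmn2 had 0.54 ± 0.16 and Ret had 0.25 ± 0.26.

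Of 8 macrophage markers, 0 passed the fold rule and the median was -0.20. Of these markers, 5 were lower on both arrays (23.4% of all features), 1 was higher on both (20.4%) and 2 had opposite signs. The 5 lower ones were C1qa (-0.17 ± 0.03), C1qb (-0.06 ± 0.05), Cd68 (-0.33 ± 0.07), Mrc1 (-0.52 ± 0.16) and Csf1r (-0.24 ± 0.30). The other 3 had larger gaps between the arrays. Adgre1 had 0.11 on array 1 and 1.27 on array 2, Lyz2 had -0.05 and 1.23, and Cx3cr1 had 0.11 and -1.27. Of 6 red cell markers, 5 were measured and 0 passed the fold rule, with a median of 0.03 and values of -0.22 ± 0.28 for Slc4a1, 0.14 ± 0.17 for Hbb-bh1 and -0.14 ± 0.17 for Alas2.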
